A study of Mus musculus with 16 samples.

Results

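Genes of the potassium, sodium and voltage-gated calcium channel families were followed in sorted olfactory cells of mice that carry the S100a5-tauGFP reporter. Members were taken by symbol alone: Kcn followed by letters and a number, Scn followed by a number and the letter a or b, and Cacna, Cacnb or Cacng. Of the 19505 genes named on the Clariom S array, 124 met this rule, each through 1 probe set. There were 89 potassium, 10 sodium and 25 calcium channel genes. All but 1 of them encode proteins, and the exception, Kcnq1ot1, is a long noncoding RNA that the symbol rule takes in.

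The 16 arrays came from 8 pools of 3 mice, whose GFP+ and GFP- cells were hybridised separately. All 24 mice were S100a5-tauGFP animals of both sexes, aged 7 to 12 weeks, and all stayed 40 h in chambers supplied with clean air. The groups were GFP+ cells of mice given 2-octanone, GFP- cells of mice given 2-octanone, GFP+ cells of mice given filtered air as vehicle and GFP- cells of mice given vehicle, with 4 arrays each. The 2-octanone, a ketone odorant, or the vehicle was pulsed for 10 s every 20 min from 26 h on. The strain's name gives the S100a5 gene as the source of the reporter, a GFP joined to tau, and GFP- cells are all other cells that passed the sort.

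Voltage-gated sodium channels open on depolarisation and carry the upstroke of the action potential, and voltage-gated calcium channels turn that depolarisation into calcium entry, above all at the nerve terminal. Potassium channels bring the membrane back and set its resting voltage, and many pore subunits work with auxiliary subunits that change their gating or surface level. In olfactory sensory neurons an odorant opens cyclic nucleotide-gated and then chloride channels in the cilia. Voltage-gated channels shape the action potentials that carry the signal to the olfactory bulb, and which of the 124 members take part was not tested.

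RefSeq gave a promoter window for 95 of the 124 genes (130 windows, GRCm38.p6). The 250 bases before the start site are printed on the gene's strand for Kcnmb3 and Scn4b, which were higher in GFP+ cells, and for Kcnn4 and Kcnk5, which were lower, as leading genes with a window in each direction. Capitals mark a GC box, GGGCGG or its reverse complement, and a window with no capitals held none of the 6 motifs searched.
Kcnmb3, chr3:32491970-32492219, minus strand: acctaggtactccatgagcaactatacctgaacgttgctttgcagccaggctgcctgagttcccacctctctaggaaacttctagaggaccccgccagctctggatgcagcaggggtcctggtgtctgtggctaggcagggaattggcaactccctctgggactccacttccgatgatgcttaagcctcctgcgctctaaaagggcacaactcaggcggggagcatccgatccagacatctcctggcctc
Scn4b, chr9:45138374-45138623, plus strand: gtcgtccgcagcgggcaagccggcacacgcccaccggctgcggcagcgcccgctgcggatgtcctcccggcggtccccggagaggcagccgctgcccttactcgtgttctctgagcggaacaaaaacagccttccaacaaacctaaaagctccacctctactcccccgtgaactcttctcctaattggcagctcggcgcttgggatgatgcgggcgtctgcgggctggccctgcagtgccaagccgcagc
Kcnn4, chr7:24370013-24370262, plus strand: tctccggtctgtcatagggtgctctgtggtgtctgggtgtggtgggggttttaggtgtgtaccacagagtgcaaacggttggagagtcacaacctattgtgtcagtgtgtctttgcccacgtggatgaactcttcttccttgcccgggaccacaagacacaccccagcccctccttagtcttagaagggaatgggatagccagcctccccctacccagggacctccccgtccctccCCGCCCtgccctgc
Kcnk5, chr14:20181783-20182032, minus strand: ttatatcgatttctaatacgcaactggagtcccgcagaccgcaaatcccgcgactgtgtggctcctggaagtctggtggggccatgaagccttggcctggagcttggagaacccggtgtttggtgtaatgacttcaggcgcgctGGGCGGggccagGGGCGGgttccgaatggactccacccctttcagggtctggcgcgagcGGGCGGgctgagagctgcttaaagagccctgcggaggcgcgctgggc

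The 6 motifs were searched on both strands of all windows, and matches could overlap. The GC box GGGCGG stood in 42.3% of channel gene windows and 32.7% of all 32851 windows, the E-box CAGCTG in 25.4% and 13%, and the palindromic core CCCNNGGG that early B-cell factors bind in 14.6% and 11.8%. The TATA box TATAAA was held by 3.85% of channel gene windows, against 12.4% of all windows. The homeodomain core TAATTA was in 0 of 130 and the cyclic AMP response element TGACGTCA also in 0, against 4.84% and 1.55% of all windows. Channel gene windows had a median GC content of 58.0%, against 52.4% for all windows. Among windows of the called genes, 35 for the higher and 9 for the lower ones, the GC box stood in 40.0% and 44.4% and the E-box in 20.0% and 22.2%. The core CCCNNGGG stood in 2.86% of the windows of higher genes, which was 1 of 35 and under its share of all windows, and in 11.1% of those of lower genes. The TATA box was in 2.86% and 0%. These matches describe the letters of these windows only.

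Array medians were 7.64 to 8.01 (log2 signal), and arrays of 1 group correlated at 0.982 to 0.995 across probe sets. The 23 background probe sets averaged 5.40 to 5.61, and the brightest of them read 7.82 to 9.10. Omp, a marker of mature olfactory sensory neurons, read 18.35 to 18.45 in GFP+ cells and 17.76 to 18.36 in GFP- cells, so both fractions held this transcript at a high level. The mean of 7 neutrophil genes was 7.01 to 13.51 on GFP+ arrays and 15.30 to 16.72 on GFP- arrays. All 7 were lower in GFP+ cells (limma adjusted p under 0.05, as for all calls here). Over all probe sets 14% were lower and 16.7% higher. Also lower were 5 of 6 immature neuron genes, 4 of 4 basal precursor, 7 of 7 microvillar, 6 of 6 lymphocyte, 4 of 7 macrophage, 2 of 6 sustentacular, 2 of 5 Bowman's gland, 2 of 4 endothelial, 1 of 4 ensheathing glia genes and the 1 erythroid gene measured. Of 8 mature neuron genes 4 were higher and none lower, with a median of 0.28. S100a5 stood low in the replicate 4 pools, at 13.22 to 13.92 in GFP+ cells against 16.47 to 16.98 in the other pools' GFP+ cells. In GFP- cells S100a5 read 15.45 to 15.81 in the other pools. In GFP- cells of replicate 4 it read 13.55 after 2-octanone and 13.11 after vehicle, so both fractions held this transcript.

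The comparison of GFP+ with GFP- cells asked which channel genes set reporter-positive cells apart from the other sorted cells. Averaged over both exposures, 32 of the 124 genes were higher and 6 lower in GFP+ cells (limma, adjusted p under 0.05), and 86 were not called. Those 38 genes were 30.6% of the members, and 30.7% of all probe sets tested were called. The split by direction was 25.8% higher and 4.84% lower for channel genes, and 16.7% higher and 14% lower for all probe sets. The median difference of the members was 0.21 (log2), against 0.13 over all probe sets. In a bulk fraction fewer cells of a type and less RNA per cell cannot be told apart. With the neutrophil mean as a covariate, which moves with the fraction, 0 members were called, while over all genes 141 were higher and 370 lower. That mean was 7.01 to 13.51 on GFP+ arrays and 15.30 to 16.72 on GFP- arrays, without overlap. This fit therefore cannot separate other cell types from the sort, and their part in these differences was not tested. Without octanone replicate 1 there were 23 called members (18.5%, against 26.9% of all probe sets), and without octanone replicate 2 there were 24 (19.4%, against 24.2%). Of those, 16 and 18 were higher, where 13.6% and 11.6% of all probe sets were.

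**Figure D1:**
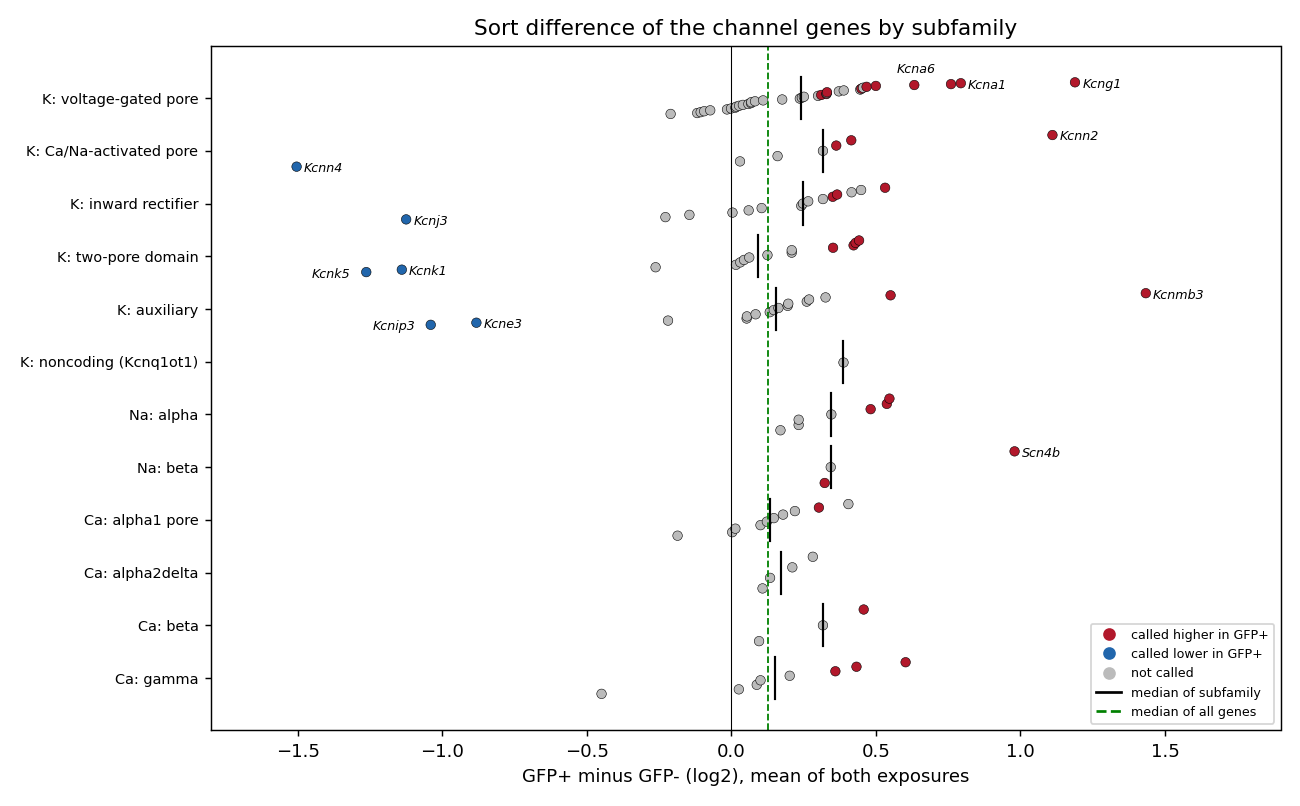
Difference of GFP+ minus GFP- signal (log2, mean of both exposures, 4 pools each) for the 124 channel genes, each point a gene, set out by subfamily with the subfamily median as a black bar and the median of all genes as a dashed line. Red points were called higher and blue points lower by limma; the blue points are 6 potassium channel genes, and no sodium or calcium channel gene lies among them.

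By class, 22 of 89 potassium, 5 of 10 sodium and 5 of 25 calcium channel genes were higher. These were 24.7%, 50.0% and 20.0%, against 16.7% of all probe sets. The 6 lower ones were all potassium channel genes, 6.74% of that class, against 14% of all probe sets. The class medians were 0.20 for potassium, 0.34 for sodium and 0.15 for calcium channel genes (log2 difference). All 10 sodium channel genes had a positive difference, as did 72 of the potassium and 23 of the calcium channel genes. Most probe sets leaned the same way, with 11271 to 12067 of all 19572 positive in single pools. There, 7 to 10 sodium, 57 to 67 potassium and 12 to 22 calcium channel genes were positive. Differences between the classes were not tested. Centring each array on its median moved all sort differences up, by 0.28 in the median of all genes, and gave 0.48, 0.62 and 0.43 for the classes and 0.41 for all genes.

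In 31 genes every array of at least 1 group was above every background probe set. Of these, 11 of 20 potassium, 3 of 5 sodium and 1 of 6 calcium channel genes were higher in GFP+ cells and 1, Kcnk1, was lower. Those 15 higher genes were 48.4% of 31, where 20.8% of all probe sets with such a signal were higher. The 1 lower gene was 3.23% of 31, where 15% of all such probe sets were lower. A gene could pass this filter through the fraction where it was high alone. These shares are therefore not independent of the sort difference, and no conclusion is drawn from them. Of the other 93 genes 17 were higher (18.3%, against 13.1% of all such probe sets) and 5 lower (5.38%, against 13.2%). These shares were not tested against each other. In 29 genes all 16 arrays lay under the background mean. In 8 of the 38 called genes at least 1 fraction did, so that their differences carry no fold: Kcng3, Kcnj6, Kcnk12 and Kcnk18 in both fractions, Scn7a and Kcnk2 in GFP- cells, and Kcnj3 and Kcne3 in GFP+ cells.

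Within single pools, 26 members were higher in GFP+ cells in all 8 pools (13.5% of all probe sets were) and 6 were lower in all 8 (12.2% of all). The 6 were Kcnip3, Kcnj3, Kcnk1, Kcnk5, Kcnn4 and the calcium channel gamma gene Cacng4, which was not called (-0.45, SE 0.25, limma adjusted p = 0.187) and is named after its values were seen. Of the 32 genes called higher, 21 were higher in every pool. The arrays of the fractions did not overlap for 1 gene that was higher, Kcnn2 (3.18% of all probe sets), and for 3 that were lower, Kcnip3, Kcnj3 and Kcnn4 (8.25% of all).

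The largest called difference upwards belonged to Kcnmb3, which encodes an auxiliary beta subunit of the large-conductance calcium-activated potassium channel. It read 14.85, 14.58, 14.79 and 14.03 in GFP+ cells after 2-octanone, against 13.46, 12.76, 13.29 and 12.62 in GFP- cells of the same pools. After vehicle it read 14.10, 14.71, 14.23 and 13.20 in GFP+ cells, against 12.71, 13.42, 12.93 and 11.83 in GFP- cells. Each pool had the higher value in GFP+ cells, and only the vehicle replicate 4 array of GFP+ cells fell into the range of the GFP- arrays. The difference was 1.43 (SE 0.24, 2.70-fold; limma adjusted p = 0.000188), and within pools it ran from 1.29 to 1.82.

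Kcnn2 encodes a small-conductance calcium-activated potassium channel, which opens on calcium entry and prolongs the pause after an action potential. Its signal was 13.70, 13.49, 13.41 and 13.22 in GFP+ cells after 2-octanone, against 12.55, 12.24, 12.39 and 12.19 in GFP- cells. After vehicle it was 13.21, 13.34, 13.32 and 12.90 in GFP+ cells, against 12.16, 12.38, 12.21 and 11.58 in GFP- cells. The 8 GFP+ arrays thus lay above all 8 GFP- arrays, with a difference of 1.11 (SE 0.12, limma adjusted p = 1.73e-06) and within-pool values of 0.96 to 1.32. The difference was 1.11 after 2-octanone and 1.11 after vehicle. Of the relatives of Kcnn2, Kcnn1, named after its values were seen, was higher by 0.36 (SE 0.10, limma adjusted p = 0.0152), and Kcnn3 is described with the exposure.

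**Figure D2:**
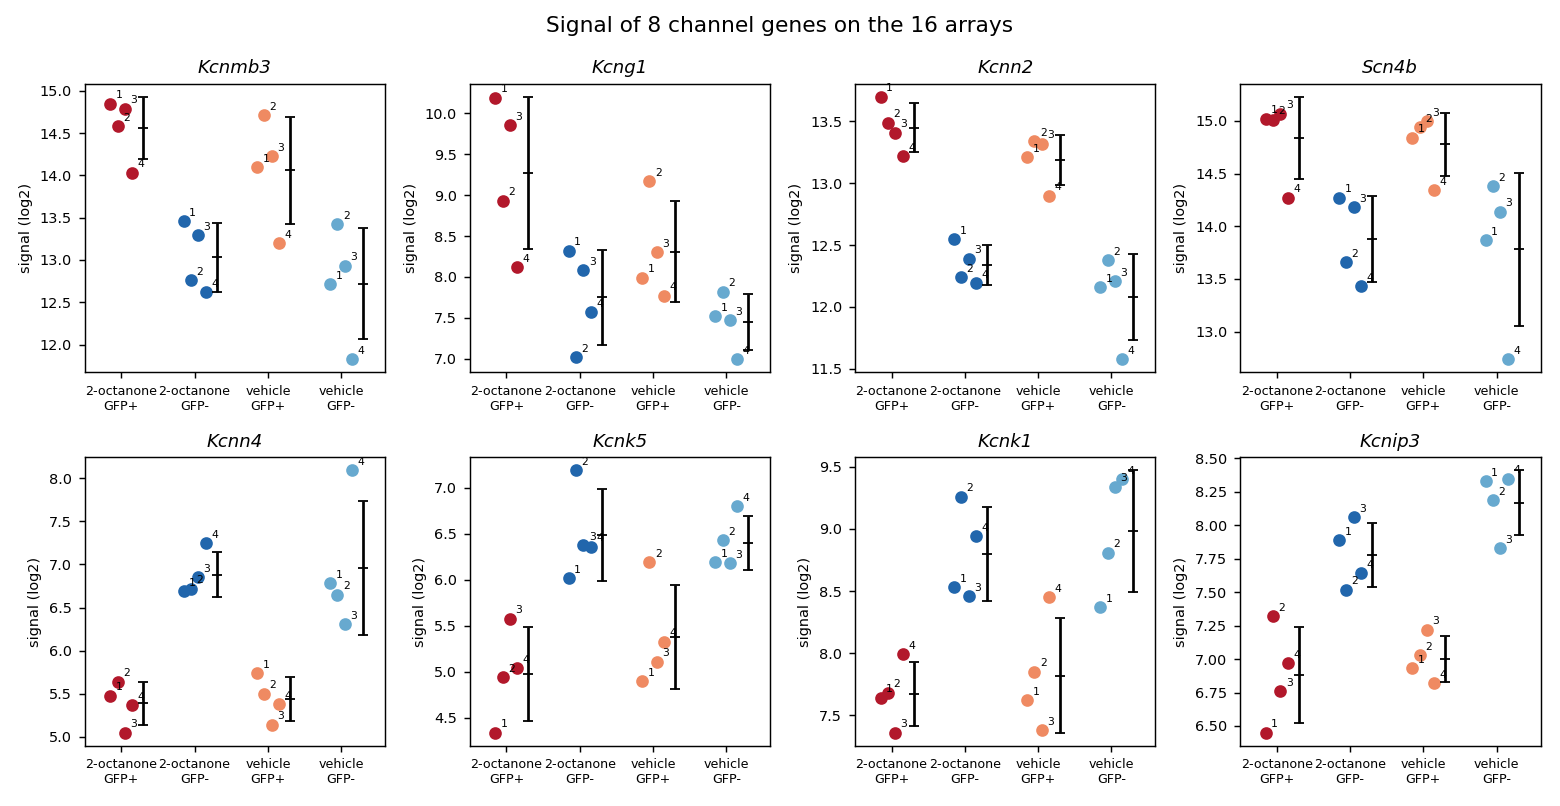
Signal (log2) of 4 channel genes that were higher in GFP+ cells (upper row) and 4 that were lower (lower row) on the 16 arrays, with each point an array marked by its replicate number and the bar the group mean ± SD (n = 4). Kcnn2, Kcnn4 and Kcnip3 show no overlap between the GFP+ and the GFP- arrays.

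In all, 10 of 36 voltage-gated pore genes were higher (27.8%) and none lower, where 16.7% of all probe sets were higher and 14% lower. Kcng1 codes for a modifier subunit that forms no channel alone and alters delayed rectifier channels. It read 10.19, 8.93, 9.85 and 8.12 in GFP+ cells after 2-octanone, against 8.32, 7.02, 8.08 and 7.57 in GFP- cells. After vehicle it read 7.99, 9.17, 8.30 and 7.77 in GFP+ cells, against 7.52, 7.82, 7.47 and 7.00 in GFP- cells. The GFP+ arrays spread over more than 2 log2 units and overlapped the GFP- arrays, yet every pool was higher in GFP+ cells, by 0.48 to 1.91. The difference was 1.19 (SE 0.29, limma adjusted p = 0.00478), called after 2-octanone (1.52) and not after vehicle (0.86). The call after 2-octanone ended without octanone replicate 2 or octanone replicate 3, with adjusted p up to 0.0773. The change of the difference with exposure, 0.67 (SE 0.57), was not called (limma adjusted p = 1.000).

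Among the Shaker-type genes, Kcna1, whose channel dampens repeated firing, had medians of 6.56 in GFP+ cells (6.11 to 6.80 over 8 arrays) and 5.66 in GFP- cells (5.16 to 6.41). The difference was 0.79 (SE 0.17, limma adjusted p = 0.00167), on a signal under the brightest background probe sets. Kcna6, a delayed rectifier of the same subfamily, had medians of 11.30 in GFP+ cells (10.40 to 11.66) and 10.76 in GFP- cells (9.30 to 11.01) and differed by 0.76 (SE 0.26, limma adjusted p = 0.0348). Kcna6 lost its call without octanone replicate 1, 2 or 3 or vehicle replicate 1 or 2, with adjusted p up to 0.108 without octanone replicate 2. Kcnh2, the ERG channel gene, whose product passes current mainly during repolarisation, had medians of 10.19 in GFP+ cells and 9.53 in GFP- cells and differed by 0.63 (SE 0.20, limma adjusted p = 0.0224). Its call ended without octanone replicate 1 (adjusted p = 0.0533), octanone replicate 2 (0.0735) or vehicle replicate 3 (0.0659). The other called pore genes, named after their values were seen, were Kcnh3 (0.50), Kcnd1 (0.47), Kcns3 (0.45), Kcng3 (0.33), Kcna5 (0.33) and Kcnf1 (0.31). Kcnh3 and Kcns3 kept the call without each single pool. Kcnd1 lost it without octanone replicate 2 or 3, Kcng3 without octanone replicate 1 or 3 or vehicle replicate 1, 2 or 3, Kcna5 without any pool but vehicle replicate 4, and Kcnf1 without any octanone pool or vehicle replicate 1 or 2. Quantile normalisation also ended the calls of Kcnd1, Kcng3 and Kcnf1.

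Inward rectifiers and two-pore channels, which hold the membrane near rest, were called in both directions. Where 16.7% of all probe sets were higher and 14% lower, 3 of 15 inward rectifier genes were higher (20.0%) and 1 lower (6.67%). Of 14 two-pore genes 4 were higher (28.6%) and 2 lower (14.3%). Named after their values were seen, the higher ones were Kcnj2 (0.53), Kcnj5 (0.37) and Kcnj6 (0.35), and Kcnk2 (0.44), Kcnk18 (0.43), Kcnk9 (0.42) and Kcnk12 (0.35). Of these 7, only Kcnj2, a strong inward rectifier, read above every background probe set, with medians of 11.18 in GFP+ cells and 10.64 in GFP- cells (limma adjusted p = 0.0138). Its call ended without octanone replicate 2 (0.0564). Kcnk18 lost its call without octanone replicate 1 or vehicle replicate 3, and Kcnk2 kept it without each single pool. Kcnj5 lost it without octanone replicate 1, 2 or 4 or vehicle replicate 1, 2 or 4, and Kcnj6 without octanone replicate 1, 2 or 3 or vehicle replicate 1, 3 or 4. Kcnk9 lost it without octanone replicate 1, 3 or 4 or vehicle replicate 1, 2 or 3, and Kcnk12 without octanone replicate 1 or 2 or vehicle replicate 1, 2 or 3. Quantile normalisation ended the calls of Kcnj6, Kcnk2, Kcnk9, Kcnk12 and Kcnk18.

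Kcnk1 codes for a weak two-pore leak channel. It read 7.64, 7.68, 7.36 and 7.99 in GFP+ cells after 2-octanone, against 8.53, 9.26, 8.46 and 8.94 in GFP- cells. After vehicle it read 7.62, 7.85, 7.38 and 8.45 in GFP+ cells, against 8.37, 8.81, 9.34 and 9.40 in GFP- cells. Every pool was lower in GFP+ cells, and the groups met only where the vehicle replicate 4 array of GFP+ cells passed the vehicle replicate 1 array of GFP- cells. The difference was -1.14 (SE 0.19, limma adjusted p = 0.000156).

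Kcnk5, whose two-pore channel responds to extracellular pH and is known from kidney epithelium, read 4.34, 4.94, 5.58 and 5.04 in GFP+ cells after 2-octanone, against 6.02, 7.19, 6.38 and 6.36 in GFP- cells. After vehicle it read 4.90, 6.19, 5.11 and 5.33 in GFP+ cells, against 6.19, 6.43, 6.18 and 6.80 in GFP- cells. All pools were lower in GFP+ cells, at -2.24 to -0.24, although the highest GFP+ array, that of vehicle replicate 2, passed the lowest GFP- arrays, and the difference of -1.26 (SE 0.22, limma adjusted p = 0.000236) was between signals near the background mean. Kcnj3, a subunit of the G protein-gated inward rectifier, read 4.07 to 4.66 in GFP+ cells and 5.05 to 6.86 in GFP- cells, a difference of -1.13 (limma adjusted p = 0.000549).

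Kcnn4 had the largest difference downwards of the 124 members. It encodes the intermediate-conductance calcium-activated potassium channel, known from red blood cells and immune cells. Its signal was 5.48, 5.64, 5.05 and 5.37 in GFP+ cells after 2-octanone, against 6.69, 6.72, 6.85 and 7.25 in GFP- cells. After vehicle it was 5.74, 5.50, 5.14 and 5.38 in GFP+ cells, against 6.78, 6.65, 6.31 and 8.09 in GFP- cells. The GFP+ arrays sat around the background mean and below every GFP- array, and the highest value was that of GFP- cells of vehicle replicate 4. The difference was -1.50 (SE 0.20, limma adjusted p = 2.14e-05). Over the 16 arrays Kcnn4 was most like Slc4a1, the anion exchanger of red cells, with a Pearson correlation of 0.9757, and then H2bc3 at 0.9669 and Tnfaip2 at 0.9646. Slc4a1 stood at 9.44 to 10.21 on GFP+ arrays and at 11.49 to 13.33 on GFP- arrays, highest on the same vehicle replicate 4 array. The part of red or immune cells in the Kcnn4 difference was not tested.

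Likeness was also listed for the other leading genes, as a description over 16 arrays that share the contrast of the sort. Kcnmb3 was most like Lrrc3b and the odorant receptor gene Olfr1480, both at 0.9651, and Kcnn2 at 0.9641. Kcng1 was most like Heg1 (0.9165), Spred2 (0.9154) and Etv5 (0.9136). Kcnk5 was most like Zfp979 (0.9321), Irf7 (0.91) and the keratin gene Krt8 (0.9085).

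Auxiliary subunits of potassium channels held 2 higher and 2 lower genes of 16. These were 12.5% in each direction, where 16.7% of all probe sets were higher and 14% lower. Beside Kcnmb3, Kcnab2, the cytoplasmic beta subunit of Shaker-type channels, was higher, with medians of 15.73 in GFP+ cells and 15.36 in GFP- cells. Its difference was 0.55 (SE 0.18, limma adjusted p = 0.0312), and the call ended without octanone replicate 2 or 4 or vehicle replicate 1, 2 or 3, with adjusted p up to 0.0843 without octanone replicate 2. Kcnip3, a calcium-binding protein that joins A-type potassium channels and also binds DNA, was lower. It read 6.45, 7.32, 6.76 and 6.97 in GFP+ cells after 2-octanone, against 7.89, 7.52, 8.06 and 7.64 in GFP- cells. After vehicle it read 6.93, 7.03, 7.22 and 6.82 in GFP+ cells, against 8.33, 8.19, 7.83 and 8.35 in GFP- cells. The fractions did not overlap on any array, and the difference was -1.04 (SE 0.13, limma adjusted p = 8.96e-06). Kcne3, a small single-pass subunit known from epithelia, read 4.01 to 5.36 in GFP+ cells and 4.95 to 5.78 in GFP- cells and differed by -0.88 (limma adjusted p = 0.00152), with 2 of 8 pools positive.

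**Figure D3:**
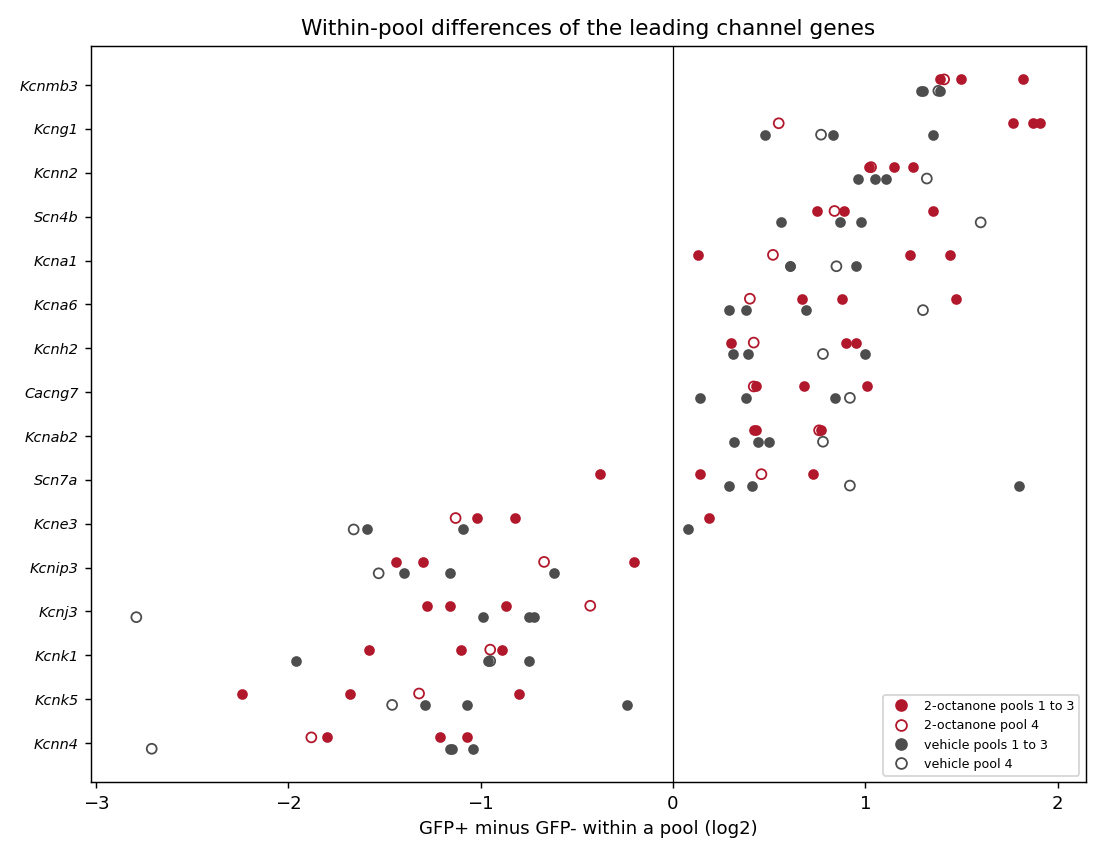
GFP+ minus GFP- difference (log2) within each of the 8 pools for the 10 channel genes with the largest called difference upwards and the 6 called lower, with 2-octanone pools in red, vehicle pools in grey and replicate 4 pools as open circles. Kcnmb3 and Kcnn2 hold a narrow range over the pools, while Kcng1 is wider after 2-octanone and Scn7a and Kcne3 have pools on both sides of 0.

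All sodium channel genes were described singly. Scn4b encodes the beta subunit that is linked to resurgent current and fast repeated firing. It read 15.02, 15.01, 15.07 and 14.27 in GFP+ cells after 2-octanone, against 14.27, 13.66, 14.18 and 13.43 in GFP- cells. After vehicle it read 14.84, 14.94, 15 and 14.34 in GFP+ cells, against 13.87, 14.38, 14.14 and 12.74 in GFP- cells. Only the replicate 4 arrays of GFP+ cells came down to the highest GFP- arrays, and the difference was 0.98 (SE 0.22, limma adjusted p = 0.00248), with 0.56 to 1.60 within pools. Scn2b, another beta subunit gene, was higher by 0.32 (SE 0.11, limma adjusted p = 0.0315). Scn3b, with medians of 15.57 in GFP+ cells and 15.31 in GFP- cells, differed by 0.34 (SE 0.17), which was not called (limma adjusted p = 0.129) but was with the pool as a block (0.0281). Scn2b lost its call without octanone replicate 1, 3 or 4 or vehicle replicate 1 or 4, with adjusted p up to 0.0953.

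Of the 7 alpha genes 3 were called, all higher (42.9%, against 16.7% of all probe sets). Scn8a, the main channel of mature axon initial segments, had medians of 9.83 in GFP+ cells (9.60 to 10.29) and 9.29 in GFP- cells (8.89 to 9.73). It differed by 0.54 (SE 0.12, limma adjusted p = 0.00349) and was called after vehicle (0.65) but not after 2-octanone (0.43). The call after vehicle ended without vehicle replicate 1 or 4, with adjusted p up to 0.103, and without both replicate 4 pools. The change of the difference with exposure, -0.21 (SE 0.25), was not called (limma adjusted p = 1.000). Scn2a, the form that predominates early in unmyelinated axons, had medians of 10.30 in GFP+ cells (10.17 to 10.71) and 9.88 in GFP- cells (9.40 to 10.18). It differed by 0.48 (SE 0.12, limma adjusted p = 0.00554), and its lowest pair of GFP+ arrays met the highest GFP- array. Scn7a, a sodium-sensing relative that is not opened by voltage, differed by 0.55 (SE 0.19, limma adjusted p = 0.0424) at background level, and the call ended without octanone replicate 1, 2 or 4 or vehicle replicate 2 or 4, with adjusted p up to 0.126 without octanone replicate 1. Scn3a differed by 0.23 (limma adjusted p = 0.0747) and Scn1a by 0.17 (0.271). Scn10a and Scn11a, known from pain-sensing neurons of dorsal root ganglia, differed by 0.23 (0.191) and 0.35 (0.257). None of these 4 was called. Scn1a and Scn10a lay under the background mean in both fractions and Scn11a in GFP- cells, so their differences carry no fold.

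The 25 calcium channel genes held 5 calls, all higher (20.0%, against 16.7% of all probe sets). Of the 10 alpha1 pore genes only Cacna1h, a low-voltage-activated form, was called, with medians of 12.52 in GFP+ cells (12.30 to 12.71) and 12.25 in GFP- cells (11.69 to 12.40) and a difference of 0.30 (SE 0.11, limma adjusted p = 0.0474). That call ended without octanone replicate 1, 2 or 3 or vehicle replicate 2, 3 or 4, with adjusted p up to 0.115 without vehicle replicate 4. Cacna1b, the N-type pore of presynaptic terminals, had medians of 13.66 in GFP+ cells and 13.78 in GFP- cells. Its difference was 0.01, with a 95% interval of -0.25 to 0.28. Cacna1c, an L-type pore, differed by 0.40 (SE 0.15, limma adjusted p = 0.0545) and was called without octanone replicate 3 (0.0213) or vehicle replicate 3 (0.0464). Cacna1d, also L-type, differed by 0.22 (0.197).

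The remaining pore genes were not called. Cacna1a, the P/Q-type pore, differed by 0.00 (95% interval -0.32 to 0.33), Cacna1e, the R-type pore, by -0.19, Cacna1g by 0.15 and Cacna1i by 0.12, both low-voltage-activated, and Cacna1f by 0.18 and Cacna1s by 0.10, known from retina and skeletal muscle. Of 4 alpha2delta genes none was called, and those with the smallest p were Cacna2d4 (0.28) and Cacna2d3 (0.21). Cacna1i, Cacna1s and Cacna2d3 lay under the background mean in both fractions and Cacna1f in GFP- cells, so their differences carry no fold. Of 3 beta genes Cacnb1 was higher (0.46, SE 0.16, limma adjusted p = 0.0447), and it lost that call without octanone replicate 1, 2 or 3 or vehicle replicate 1, 2 or 3, with adjusted p up to 0.128 without octanone replicate 1. Cacnb2, with medians of 14.49 in GFP+ cells and 14.22 in GFP- cells, differed by 0.32 (limma adjusted p = 0.0686) and was called with the pool as a block (0.0292). Of 8 gamma genes 3 were higher (37.5%, against 16.7% of all probe sets). Cacng7, a partner of AMPA receptors, was higher by 0.60 (SE 0.21, limma adjusted p = 0.0393). Cacng2 was higher by 0.43 and Cacng6 by 0.36, this pair being named after their values were seen. Cacng6 lost its call without octanone replicate 1 or vehicle replicate 3. Cacng7 lost its call without octanone replicate 1, 2 or 3 or vehicle replicate 2 or 3, with adjusted p up to 0.11.

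**Figure D4:**
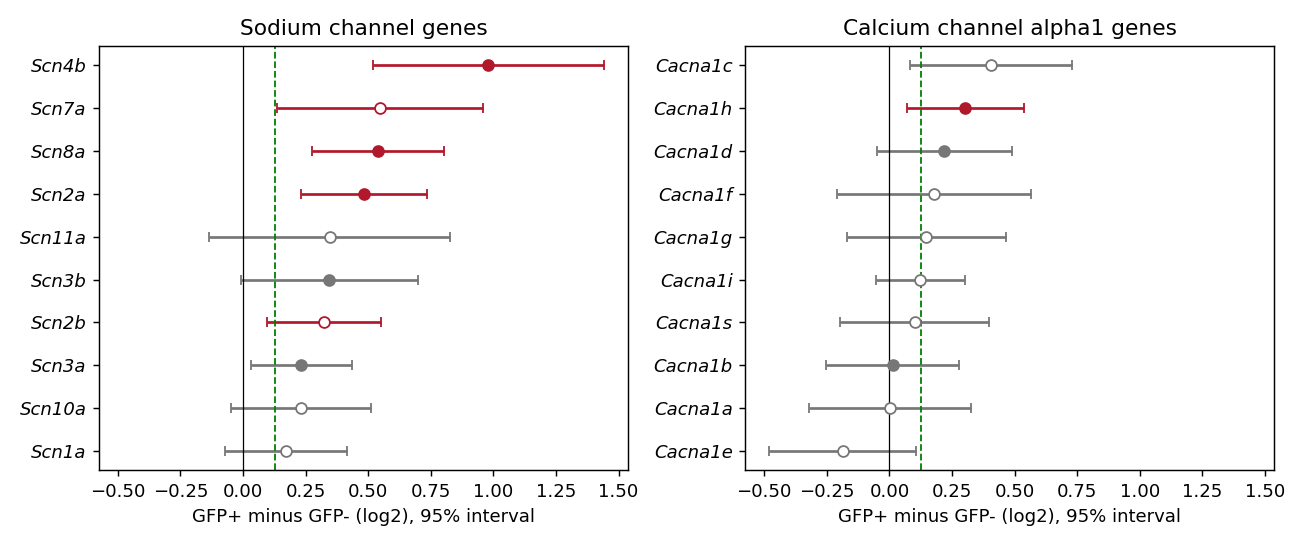
GFP+ minus GFP- difference (log2, mean of both exposures) with its 95% interval for the 10 sodium channel genes and the 10 calcium channel alpha1 genes; red marks called genes, filled points genes above every background probe set in a group, and the dashed line the median of all genes. All 10 sodium channel genes lie above 0, as does the median of all genes, and among the alpha1 genes only Cacna1h was called.

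Within exposures the calls were fewer. After 2-octanone 8 members were higher and 5 lower, 10.5% of them, where 5.29% of all probe sets were higher and 9.8% lower (15.1% in all). After vehicle 8 were higher and 6 lower, 11.3% of them, where 7.54% of all were higher and 11% lower (18.6% in all). Kcna1, Kcnmb3, Kcnn2 and Scn4b were higher and Kcnip3, Kcnj3, Kcnk1, Kcnk5 and Kcnn4 lower in both. Of these 9, Kcnmb3, Kcnn2, Kcnip3 and Kcnn4 kept both calls without each single pool. Scn4b lost its call after 2-octanone without any 1 octanone pool or without vehicle replicate 1 or 3, and its call after vehicle without vehicle replicate 1 or 3. Kcna1 lost its call after 2-octanone without octanone replicate 2 or 3 and its call after vehicle without any 1 vehicle pool. Kcnj3 lost its call after 2-octanone without any 1 octanone pool or without vehicle replicate 2 or 3, and Kcnk5 its call after vehicle without vehicle replicate 1, 3 or 4. Kcnk1 lost its call after 2-octanone without octanone replicate 2 and its call after vehicle without vehicle replicate 3. All 38 members called over both exposures had the same sign in each. A block for the pool, whose fractions share mice, gave other counts: 25 members were called after 2-octanone and 22 after vehicle. These were 20.2% and 17.7% of the members, where 19.7% and 21.9% of all probe sets were called with the same block. After 2-octanone the count was 6 without octanone replicate 2 (4.84%, against 10% of all probe sets). It was 8 without octanone replicate 3 (6.45%, against 11.7%) and 20 without vehicle replicate 4 (16.1%, against 17.9%). After vehicle it was 9 without vehicle replicate 1 (7.26%, against 14.6%) and 9 without vehicle replicate 4 (7.26%, against 13%).

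Related channels outside the symbol rule and partners of channels were taken from lists. Over both exposures 16.7% of all probe sets were higher in GFP+ cells and 14% lower, with a median of 0.13. Of 41 related channel genes measured, among them cyclic nucleotide-gated, HCN and TRP genes, 11 were higher and 4 lower (median 0.22). The smallest p belonged to Trpm5, the cation channel of tuft-like microvillar cells, at -3.25 (SE 0.24, limma adjusted p = 2.32e-08), which is also on the microvillar list. Hvcn1, the proton channel of phagocytes, followed at -1.85, Trpm2, known from immune cells, at -1.23, and Trpa1, an irritant receptor, at 0.64. Of 25 channel partners, such as ankyrins and scaffold proteins, 9 were higher and 3 lower (median 0.23). Rest, which represses neuronal genes in other cells, differed by -1.25 (SE 0.18), the adhesion gene Nrcam by -0.98, the scaffold gene Dlg2 by 0.70 and Unc79, a subunit of the sodium leak channel complex, by 0.61.

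The comparison of 2-octanone with vehicle asked whether the odorant moved channel genes within a fraction. In GFP+ cells limma called 0 of the 124 members, and 0% of all probe sets. At an unadjusted p under 0.05 there were 7 members, 6 higher and 1 lower, in a background of 3.16%. In GFP- cells it called 0 members, against 0.00511% of all, with 2 members at an unadjusted p under 0.05 (2.44% of all). For the change of the GFP+/GFP- ratio it also called 0 (0% of all), with 4 members at an unadjusted p under 0.05 (2.38% of all). The median difference of potassium channel genes was 0.01 in GFP+ cells and 0.01 in GFP- cells. The mean of the neutrophil genes was 7.32, 7.56, 10.48 and 13.51 in GFP+ cells after 2-octanone, against 7.39, 7.56, 7.01 and 8.86 after vehicle, and its part in the exposure values was not tested.

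The member with the smallest p in GFP+ cells was Kcnn3, another small-conductance calcium-activated channel gene. It read 7.19, 6.80, 6.92 and 6.29 in GFP+ cells after 2-octanone, against 5.60, 5.87, 6.07 and 6.04 after vehicle. In GFP- cells it read 6.86, 6.17, 6.38 and 5.79 after 2-octanone, against 6.19, 6.16, 6.22 and 5.72 after vehicle. The GFP+ arrays of the exposures did not overlap, those of GFP- cells did, and all lay under the brightest background probe sets. The difference in GFP+ cells was 0.90 (SE 0.22, unadjusted p = 0.000868), without a call (limma adjusted p = 1.000), and the lowest adjusted p over its alternatives was 0.317. The GFP+/GFP- ratio of Kcnn3 changed by 0.67 (SE 0.31, limma adjusted p = 1.000), without a call.

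Also high in GFP+ cells after 2-octanone, none of them called, were Kcng1 (0.96, SE 0.41), Cacna1g (0.59, SE 0.21) and Kcnh5 (0.52, SE 0.21), an ether-a-go-go-type pore gene. By replicate number the difference of Kcng1 was 2.19, -0.24, 1.55 and 0.35, so it was not of 1 sign. Those with the smallest p and a negative difference were Kcne1l (-0.46), Kcna7 (-0.29), Kcnk6 (-0.34) and Kcnj5 (-0.29). Kcne1l and Kcnh5 read at or under the background mean. In GFP+ cells the arrays of the exposures did not overlap for 2 members, Kcnn3 and Kcnh1 (1.61%; 1.79% of all probe sets), and Kcnh1 lay under the background mean on all arrays.

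In GFP- cells the members with the smallest p were Scn7a (0.59, SE 0.28), Kcnj9 (0.30), Kcnk3 (0.22) and Kcnab3 (0.28) with a positive and Kcnip3 (-0.40, SE 0.18), Kcnk6 (-0.37), Kcnip1 (-0.37) and Kcnk2 (-0.31) with a negative difference. None was called (limma adjusted p = 1.000 for each). The arrays did not overlap for 5 members in GFP- cells, Scn7a, Kcnj9 and Kcnk3 upwards and Kcnip1 and Cacng5 downwards (4.03%; 1.82% of all probe sets), Cacng5 being named after its values were seen. Of these 5, Kcnj9, Scn7a and Kcnip1 lay under the background mean on all GFP- arrays. For the ratio, Cacna1g (0.56), Kcnh1 (0.30) and Cacng3 (0.37) followed Kcnn3 upwards. Kcne1l (-0.72), Kcnj9 (-0.47), Kcna7 (-0.46) and Scn7a (-0.62) had the smallest p downwards, and none was called.

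**Figure D5:**
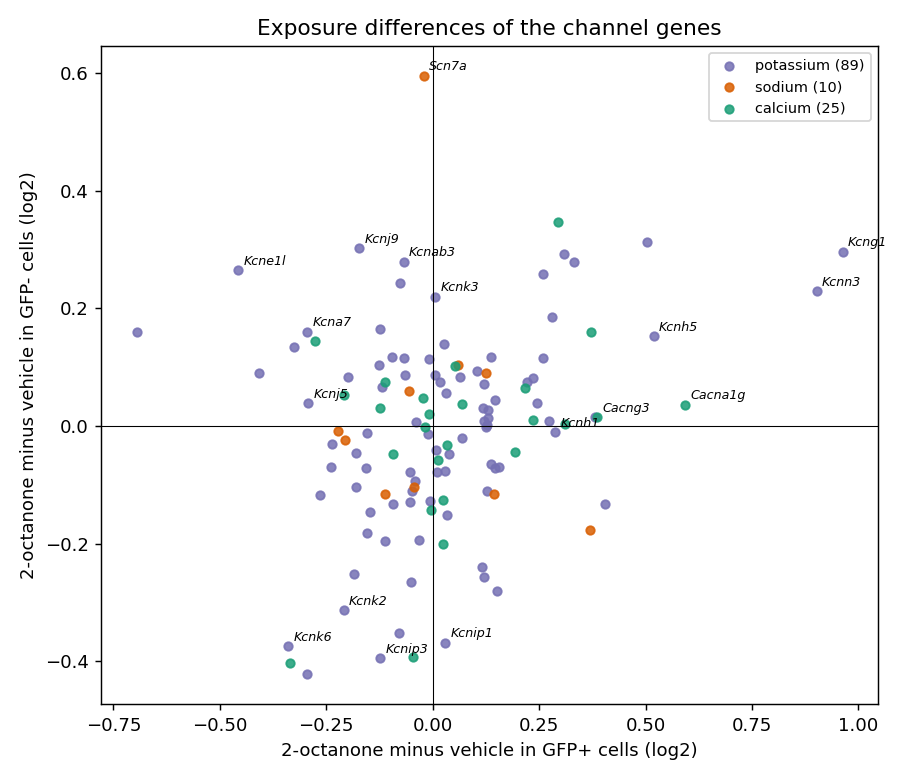
Difference of 2-octanone minus vehicle (log2, 4 arrays against 4) in GFP+ cells (horizontal) and in GFP- cells (vertical) for the 124 channel genes, coloured by class, with the genes of smallest p named. Most points lie near 0 on both axes, and Kcng1 and Kcnn3 lie farthest to the right, neither of them called.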

How the data were processed

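RNA of FACS-sorted GFP+ and GFP- cells was hybridised as biotinylated cRNA from 50 to 100 ng of total RNA to Clariom S mouse arrays, per the labels' protocols. The deposited table holds 28846 probe sets on 16 arrays, and its values, 2.13 to 18.99, are taken here to be log2 signals normalised by the authors, made with Affymetrix Expression Console per the submitters' processing notes. The log base and the normalisation method are not given in the sources used here. Left out were 6640 control probe sets and 2634 without a gene name.

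All 19572 named probe sets entered 1 fit in R 4.3.3, by lmFit and eBayes of limma 3.58.1 (two-sided), on the means of the 4 groups, with 12 residual and 4.19 prior degrees of freedom. Calls needed an adjusted p under 0.05 (Benjamini-Hochberg over all 19572). Tables and figures were made with Python 3.11.15 and pandas 2.3.3. The fit was tested on simulated data. The number of arrays, 4 per group, limits the precision, and p-values rest on pools of 3 mice.

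The members and all lists were chosen with earlier results of these data known. Named were every Scn and Cacna1 gene, the 10 members with the largest difference in each direction in the sort of the called members whose sign held in each exposure (6 lower ones existed), the 4 with the smallest p in each direction for each exposure comparison, the 2 with the smallest p of any subfamily not reached otherwise, and the 4 with the smallest p of each list. The 12 marker lists are named only by their counts. Any other name is marked in the text as picked with its values in view.

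Since 1 set of mice gave the GFP+ and GFP- cells of a pool, the pool is a pairing of the arrays. Residuals from the group means correlated across probe sets at 0.264, -0.005, 0.325 and 0.461 in the 2-octanone pools and 0.086, 0.221, 0.301 and 0.442 in the vehicle pools. Promoter windows and gene symbols were taken from RefSeq.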

Additional observations from a re-analysis of the deposited data

Results flagged for a closer look

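In 208 groups of 4 arrays (the named members in each group) 16 values stood far from the other 3 by Dixon's test, where chance alone gives about 1 in 20 groups. Of the 16, 7 were on the array of GFP- cells of vehicle replicate 4. There Scn3b read 14.42 (15.31 to 15.36 on the other 3), Kcna6 9.30 (10.78 to 11.01), Kcnab2 14.33 (15.35 to 15.46), Kcnn3 5.72 (6.16 to 6.22) and Scn10a 3.03 (3.45 to 3.51), all lower. On the same array Kcnj3 read 6.86 (5.05 to 5.34) and the noncoding RNA Kcnq1ot1 8.15 (5.95 to 6.16), both higher. On that array the mean of the mature neuron genes was 16.43, against 16.98 to 17.00 on the other 3. The mean of every other marker list was the highest of its group there. Among them were the macrophage genes at 10.81 (9.40 to 9.70), the neutrophil genes at 16.30 (15.44 to 15.82) and the erythroid gene at 13.33 (11.49 to 12.03).

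Of the other 9 values, 3 were on other replicate 4 arrays: Cacna1c at 8.97 in GFP+ cells after vehicle, and Scn4b at 14.27 and Cacnb2 at 14.22 in GFP+ cells after 2-octanone. In GFP+ cells of octanone replicate 3 Cacna1h read 12.62, and in GFP- cells of octanone replicate 3 Cacnb1 read 7.31. In GFP+ cells of octanone replicate 1 Cacna2d3 read 4.54. In GFP+ cells of vehicle replicate 2 Scn7a read 6.19 and Kcne3 5.04, both near background, and in GFP- cells of vehicle replicate 1 Kcnj5 read 6.91.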

How the results depend on the processing

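The counts of called members in the exposure comparisons and the ratio were 0 under each alternative run. For the sort over both exposures (38 called) the count was 104 with median centring (98 higher, 6 lower, 83.9% of members and 77.4% of all probe sets). The filter on dim probe sets gave 18 (54.5% of 33 members and 37.4% of all probe sets kept) and the neutrophil mean as covariate 0 (0% and 2.61%). With 1 pool left out there were 23 to 34 (18.5% to 27.4% of members and 24.2% to 27.7% of all probe sets). After 2-octanone (13) the count was 70 (56.5% of members and 48.7% of all probe sets), 7 (21.2% of 33 members and 18.5%) and 0 (0% and 1.95%) in the same order. The replicate block by pool gave 25 (20.2% and 19.7%), as did leaving out both replicate 4 pools (20.2% and 16.2%). A threshold of 0.1 gave 20 (16.1% and 20.2%), and leaving out 1 pool gave 6 to 20 (4.84% to 16.1% and 10% to 17.9%). After vehicle (14) the count was 77 (62.1% of members and 57.7% of all probe sets), 9 (27.3% of 33 members and 22.7%) and 0 (0% and 1.57%). The replicate block by pool gave 22 (17.7% and 21.9%) and a threshold of 0.1 gave 24 (19.4% and 24.4%). Leaving out 1 pool gave 9 to 14 (7.26% to 11.3% and 13% to 19.6%). With median centring all 38 remained called with the same sign. With quantile normalisation 28 were called (22 higher, 6 lower; 22.6% of members and 28.9% of all probe sets) and 11 of the 38 calls ended: Cacna1h, Cacnb1, Kcnd1, Kcnf1, Kcng3, Kcnj6, Kcnk12, Kcnk18, Kcnk2, Kcnk9 and Scn7a. Of the 38 calls 18 held without each single pool and 20 ended without at least 1.

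The fractions of a pool are paired, and with the pool as a block the sort called 47 members (40 higher, 7 lower; 36% of all probe sets, 21.2% higher and 14.7% lower), all 38 among them, with Cacng4 newly lower. The replicate number as a block across exposures gave 48 (38.7% of members and 37.5% of all probe sets). Residuals correlated between exposures at 0.193, 0.175, 0.265 and 0.435 among GFP+ arrays and at 0.336, -0.062, 0.352 and 0.517 among GFP- arrays, so the numbers are not settled as pairs. Neither block ended a call of the sort over both exposures, and the block by pool ended 1 call after 2-octanone (Cacng2) and 1 after vehicle (Cacng6).

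The class medians over both exposures, after 2-octanone and after vehicle were 0.48, 0.45 and 0.52 for potassium, 0.62, 0.62 and 0.67 for sodium and 0.43, 0.47 and 0.43 for calcium channel genes with median centring. With the neutrophil covariate they were -0.045, -0.028 and -0.111 for potassium and -0.082, -0.059 and -0.105 for sodium, and 0.02 after 2-octanone and -0.10 after vehicle for calcium channel genes. For potassium they were 0.14, 0.14 and 0.14 with quantile normalisation and 0.45, 0.45 and 0.42 with the filter on dim probe sets, and after 2-octanone 0.25 without both replicate 4 pools and 0.16 to 0.25 with 1 pool left out.

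Some named genes turned sign over both exposures. The neutrophil covariate moves with the fraction. No gene that turned with it was called, at limma adjusted p of 0.262 (Cacna2d4) to 0.969 (Scn3a). With the neutrophil covariate the differences were -0.52 for Cacna1b, -0.79 for Cacna2d4, -0.64 for Cacnb1, -0.26 for Cacnb2, -0.47 for Cacng7, -0.86 for Kcna6, -0.31 for Kcnab2, -0.59 for Kcng1, -0.68 for Kcnh2, -0.33 for Scn10a, -1.02 for Scn11a, -0.14 for Scn1a, -0.027 for Scn3a, -0.67 for Scn3b and -0.26 for Scn4b. Cacna1a stood at -0.003 with array weights and at -0.113 to 0.133 with 1 pool left out, where it was -0.047, -0.017, -0.113 and -0.03 without octanone replicate 2, octanone replicate 3, vehicle replicate 3 and vehicle replicate 4. Cacna1b stood at -0.016 with array weights, -0.014 with quantile normalisation and -0.10 to 0.067 with 1 pool left out, where it was -0.10 without octanone replicate 2 and -0.04 without vehicle replicate 4. Cacna1e stood at 0.093 with median centring and Cacna1s at -0.017 with quantile normalisation. The causes were not tested. Each member has 1 probe set, so the choice of probe set had no alternative. Signal limits the rest: 93 members were in no group above every background probe set.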

Other observations

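Among the 31 channel genes above every background probe set in a group, 15 were not called in the sort, and those named here were chosen after their values were seen. Kcnk10, a mechanically gated two-pore channel gene, had medians of 14.52 in GFP+ cells and 14.46 in GFP- cells, a difference of 0.03 (SE 0.10). Kcnmb2 and Kcnmb4, beta subunit genes like Kcnmb3, differed by 0.15 and 0.05 between the fractions, where Kcnmb3 differed by 1.43. Kcnip4, a relative of Kcnip3, had medians of 13.48 in GFP+ cells and 13.51 in GFP- cells. Its difference of 0.20 (SE 0.18, limma adjusted p = 0.414) stood beside -1.04 for Kcnip3. Kcnc4, a fast-repolarising pore gene, differed by 0.46 (limma adjusted p = 0.0594), the largest difference upwards that was not called. Outside the 31 genes, the noncoding RNA Kcnq1ot1 read 6.54, 6.56, 5.97 and 7.64 in GFP+ cells after 2-octanone, against 7.63, 6.94, 6.73 and 8.20 after vehicle. It differed between these exposures by -0.69 (SE 0.52), which was not called. Between the fractions it differed by 0.39 (limma adjusted p = 0.442).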
